A study of Mus musculus with 16 samples.

Results

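The comparison described here is that of control organoids from the proximal colon with control organoids from the distal colon, both kept in medium with Wnt factors. Its members were chosen by region, guide and medium in the sample titles. They are 4 of the 16 libraries of the series, 2 proximal and 2 distal. Organoids are miniature epithelial structures that grow from colon stem cells in a gel, so that the tissue around the epithelium is left behind.

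RNA sequencing libraries were made from organoids derived from 2 female mice aged 8 weeks. All groups shared a heterozygous Cre-inducible Braf V600E allele and a heterozygous tdTomato reporter. The Braf allele codes for normal protein until Cre acts, and the labels of these libraries name no Cre treatment. The proximal organoids came from the first centimetre of the proximal colon and the distal organoids from the last centimetre of the descending colon. Both were transduced with a lentivirus that carries Cas9 and a guide without a target (Scramble-sgRNA), were selected with blasticidin for 2 weeks, and had been in culture for about 4 months. They were then grown for 2 days in WENR-plus, the medium with Wnt3a, EGF, Noggin and R-spondin 1, and for another 3 days in WENR-plus. The libraries set beside them were the Scramble-sgRNA libraries that spent those 3 days in WENR-minus, which lacks the factors, and the Cdx2-sgRNA libraries in WENR-plus. The Cdx2-sgRNA organoids grew from single cells and carry frameshifts in Cdx2, so each is 1 clone, whereas no such step is described for Scramble-sgRNA. Per the study's methods, organoids were raised from 2 independent animals, and the labels do not say which number is which mouse.

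The proximal and distal colon differ in what they absorb and secrete and in the sugar coats of their mucins. In the embryo, position along the gut is laid down by Hox transcription factors, whose genes lie in clusters and are active further back the nearer they lie to the 5′ end of the cluster, where the high paralog numbers are. Cdx1 and Cdx2 are related homeobox factors that give intestinal epithelium its identity and act on Hox genes. Wnt ligands bind Frizzled receptors on crypt stem cells and act through beta-catenin and the TCF/LEF factors, and R-spondin amplifies that signal.

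Epithelial markers were abundant in both groups. The 10 mucosal epithelial markers summed to 6793 and 7066 CPM (read counts scaled to library size and composition) in the proximal libraries and 7015 and 5846 in the distal ones. Krt8, a simple epithelial keratin, was at 1183 and 1383 CPM in the proximal and 1207 and 1046 CPM in the distal libraries. Mesenchymal, immune, endothelial and neural markers stayed under 12 CPM in sum in any of the 4 libraries for each list, and none of their tested members was called. The defining genes Col3a1, Dcn, Cd79a, Adgre1, Emcn and Sox10 had no read in any of the 4. At most 3 reads in each library were found for 9 of 14 mesenchymal, 11 of 14 immune, 6 of 8 endothelial and 4 of 9 neural and glial markers. The mesenchymal and endothelial lists were lowest in the second proximal library, with 3.43 and 4.62 CPM. The immune list was at 9.75 and 6.51 CPM in the proximal and 2.2 and 2.21 CPM in the distal libraries. Their part in the differences given here was not tested. The 4 libraries held 14079566 to 18319430 reads on genes, and 16.9% to 24.74% of them were mitochondrial. On log CPM, the 2 proximal libraries correlated at 0.9725 and the 2 distal ones at 0.9739, against 0.9437 to 0.9488 between regions.

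Cdx2, the gene targeted elsewhere in the series, was present in all 4 control libraries. It was at 142 and 127 CPM in the proximal and 76.8 and 67.9 CPM in the distal libraries, without overlap, and proximal over distal was 0.89 on the log2 scale (SE 0.20, edgeR adjusted p = 0.0444). That difference passed the test but not the fold threshold, so it was not called. Over the 16 libraries Cdx2 had 515 to 3269 reads, so the frameshifted gene was still transcribed in the Cdx2-sgRNA libraries and its reads do not check the edit. Cdx1 was at 71 and 66.8 CPM in the proximal and 95.4 and 79.9 CPM in the distal control libraries, a log2 fold change of −0.35 (SE 0.21) that did not pass the test (adjusted p = 0.511).

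Across the genome, 267 of 15289 tested genes were called, which is 1.75%. A gene was called when edgeR's quasi-likelihood test gave a Benjamini-Hochberg adjusted p under 0.05 and the log2 fold change was over 1 in either direction. The spread was estimated over all 16 libraries, so SE and p also carry the spread of groups that were not compared. Of the 267 called genes, 104 (0.680% of those tested) were higher in proximal and 163 (1.07%) higher in distal organoids. The proximal-high genes had a median of 12.9 CPM in the proximal and 0.631 CPM in the distal libraries. In size, their fitted log2 fold change was between 1 and 2 in 20 of the 104, between 2 and 4 in 33 and over 4 in 51, and 27 had at most 3 reads in each distal library. The distal-high genes had a median of 23.1 CPM in the distal and 3.44 CPM in the proximal libraries. Their fitted log2 fold change was between 1 and 2 in 68 of the 163 in size, between 2 and 4 in 36 and over 4 in 59, and 24 had at most 3 reads in each proximal library. Where no library of a group exceeded 3 reads for a gene, the fold of a named gene is given as a bound computed with 3 reads in each of those libraries. The size counts above use fitted values, which for such genes depend on the count that the model adds. Rab38 was fitted at 6.04 with a bound of 3.06-fold, and Agtr1a at −5.73 with a bound of 2.42-fold.

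**Figure D1:**
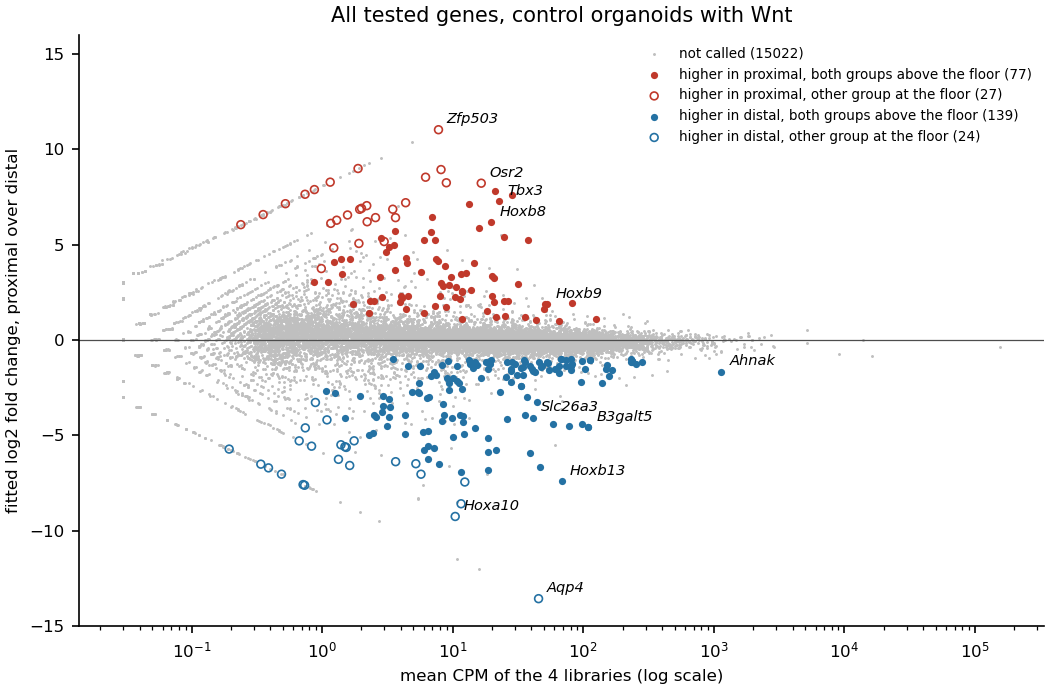
Fitted log2 fold change of proximal over distal (vertical axis) against the mean CPM of the 4 libraries (horizontal log axis) for the 15289 tested genes. Red and blue mark the 104 and 163 called genes, and open symbols mark those whose lower group did not exceed 3 reads in either library, whose fitted fold depends on the count that the model adds. The distal-high Hoxb13 and the proximal-high Hoxb8 lie on opposite sides, and Aqp4 has the lowest fitted value.

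With 2 libraries a group, leaving 1 out leaves a group of 1 library and lowers the power of the test. The number of calls in such a fit reflects that loss as well as differences between libraries, and the 2 cannot be told apart. It was 86 without proximal replicate 1, 80 without proximal replicate 2, 105 without distal replicate 1 and 138 without distal replicate 2. Of the 267 called genes, 49 kept their call in each of those 4 fits, 16 of them proximal-high and 33 distal-high, and 105 kept it in none, although none changed direction. The unchanged direction carries little weight, since the genes were called for lying apart in these same libraries. The genes below are given with the number of these 4 fits that kept the call where it was not all 4. A lost call can also come from the lower power of such a fit.

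Hox genes were called in both directions. Of 39 Hox genes, 24 were tested, 9 were called higher in proximal and 6 higher in distal organoids, which is 15 of 24 beside 1.75% of all genes tested. The clusters split by position. Hoxb3 to Hoxb9, Hoxd4 and Hoxd8 were higher in proximal organoids, and Hoxa7, Hoxa9, Hoxa10, Hoxa11, Hoxa13 and Hoxb13 were higher in distal organoids. The upstream sequences of some of these genes are given first, because genes of these clusters were called in opposite directions. They are the proximal-high Hoxb8, Hoxb4, Hoxd8 and Hoxd4 and the distal-high Hoxa10 and Hoxa13. Each line is the 250 bases before a RefSeq start of the gene (GRCm38.p6), 5′ to 3′ on the strand of the gene. Capitals mark matches to TTTATNG, a core of the motif that Cdx factors bind, searched on both strands.

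Hoxb8: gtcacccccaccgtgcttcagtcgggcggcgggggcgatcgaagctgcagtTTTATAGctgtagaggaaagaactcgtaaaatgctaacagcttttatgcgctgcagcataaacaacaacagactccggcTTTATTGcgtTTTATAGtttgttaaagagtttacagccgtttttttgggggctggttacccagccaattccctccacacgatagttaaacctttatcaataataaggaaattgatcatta

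Hoxb4: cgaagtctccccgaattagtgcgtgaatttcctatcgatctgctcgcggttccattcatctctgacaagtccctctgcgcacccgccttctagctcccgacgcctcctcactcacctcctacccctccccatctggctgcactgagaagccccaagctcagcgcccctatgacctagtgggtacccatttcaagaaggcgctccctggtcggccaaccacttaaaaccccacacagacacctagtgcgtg

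Hoxd8: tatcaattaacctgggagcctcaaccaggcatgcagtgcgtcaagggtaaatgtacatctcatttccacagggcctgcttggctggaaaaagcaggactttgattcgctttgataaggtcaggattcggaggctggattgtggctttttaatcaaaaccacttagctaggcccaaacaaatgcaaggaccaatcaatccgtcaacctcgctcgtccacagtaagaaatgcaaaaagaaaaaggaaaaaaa

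Hoxd4: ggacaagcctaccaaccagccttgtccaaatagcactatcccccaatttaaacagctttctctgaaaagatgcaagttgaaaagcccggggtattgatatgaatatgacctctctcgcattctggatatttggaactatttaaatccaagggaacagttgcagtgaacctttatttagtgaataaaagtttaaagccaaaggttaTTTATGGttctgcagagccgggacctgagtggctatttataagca

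Hoxa10: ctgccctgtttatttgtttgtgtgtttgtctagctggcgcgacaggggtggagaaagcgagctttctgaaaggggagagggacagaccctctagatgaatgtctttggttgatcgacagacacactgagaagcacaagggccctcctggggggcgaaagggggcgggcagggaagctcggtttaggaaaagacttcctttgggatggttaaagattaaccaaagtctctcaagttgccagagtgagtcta

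Hoxa13: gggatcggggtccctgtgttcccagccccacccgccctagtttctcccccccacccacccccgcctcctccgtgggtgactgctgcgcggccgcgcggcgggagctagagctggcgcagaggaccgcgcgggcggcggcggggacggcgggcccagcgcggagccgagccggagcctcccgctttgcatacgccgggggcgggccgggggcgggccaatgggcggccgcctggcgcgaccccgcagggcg

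The Hoxb8 sequence (chr11:96281655-96281904, plus strand) held 3 matches and 12 CpG dinucleotides. The Hoxb4 sequence (chr11:96318017-96318266, plus strand) held 0 matches and 14 CpG dinucleotides, and the Hoxd8 sequence (chr2:74704365-74704614, plus strand) 0 matches and 6. The Hoxd4 sequence (chr2:74721728-74721977, plus strand) held 1 match and 3 CpG dinucleotides. The Hoxa10 sequence (chr6:52240855-52241104, minus strand) held 0 matches and 7 CpG dinucleotides, and the Hoxa13 sequence (chr6:52260881-52261130, minus strand) 0 matches and 35. A second RefSeq start of Hoxa10, not printed, had 20 CpG dinucleotides and 0 matches before it (chr6:52234940-52235189), and the sequences of Hoxa7, Hoxa9 and Hoxa11 in the table also held 0 matches. Matches thus stood before Hoxb8 and Hoxd4 but not before the likewise proximal-high Hoxb4 and Hoxd8. Over all 32851 such sequences in the RefSeq table, 9.81% held a match. The share was 12.5% of 96 sequences from 72 proximal-high genes and 9.94% of 181 sequences from 127 distal-high genes. A match is a run of letters in this window and not a measured binding site.

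Hoxb8 (ENSMUSG00000056648.5, chr11:96281905-96285315) was at 44.5 and 32.7 CPM in the proximal and 0.20 and 0.86 CPM in the distal libraries. The groups were far apart (log2 fold change 6.19, SE 0.46, adjusted p = 3.67e-05). Its neighbour Hoxb6 was at 71.4 and 74.6 CPM against 1.4 and 2.53 CPM (5.22, SE 0.49, adjusted p = 0.000245), and Hoxb7 at 34.3 and 27.8 CPM against 0.15 and 0.914 CPM (5.87, SE 0.57, adjusted p = 0.000276). These 3 genes stayed under 3 CPM in both distal libraries. Hoxb9 was different in that the distal libraries also held it, at 27.6 and 18.3 CPM against 88.5 and 78.1 CPM in the proximal ones (1.86, SE 0.20, adjusted p = 0.000665).

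Towards the 3′ end of the cluster, Hoxb3 was at 25.2 and 29.6 CPM against 1.35 and 1.94 CPM (4.05, SE 0.56, call kept in 3 of 4 fits). Hoxb5 was at 7.65 and 9.0 CPM against 0.25 and 0.591 CPM (4.29, SE 0.67, kept in 2). Hoxb4 was at 9.13 and 19.6 CPM against 0.15 and 0.591 CPM (5.26, SE 1.02, kept in 0). Its 2 proximal values were the least alike of the called Hoxb genes. Hoxb2 had no read in the distal libraries and was at 0.143 and 7.57 CPM in the proximal ones, so it was carried by proximal replicate 2 and was not called (adjusted p = 0.18). The antisense transcript Hoxb5os was also called, at 2.01 and 2.6 CPM in the proximal libraries and without a read in the distal ones, at least 14.8-fold higher (kept in 0).

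Hoxb13 (ENSMUSG00000049604.3, chr11:96194316-96197447), the last gene of the same cluster, went the other way. It was at 0.86 and 0.71 CPM in the proximal and 149 and 123 CPM in the distal libraries, the smallest adjusted p of the Hox genes (−7.41, SE 0.33, adjusted p = 1.3e-06). In TPM, which divides by transcript length, the distal mean was 105 TPM for Hoxb13, above 26.9 TPM for Hoxa13, 24.2 for Hoxa9 and 20.3 for Hoxa10. In the proximal organoids the highest mean was 66.7 TPM for Hoxb6, followed by 57.2 for Hoxb9, 54.2 for Hoxb8 and 46.8 for Hoxb7. The order within these sets was not tested.

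The Hoxa cluster was called in the distal direction only, in 5 of its 11 tested genes, beside 1.07% of all genes. Hoxa10 had 0 or 1 read in the proximal libraries and was at 20.8 and 21 CPM in the distal ones, at least 130-fold lower in proximal (adjusted p = 3.01e-05). Hoxa9 was at 0.239 and 0.118 CPM against 23 and 22.7 CPM (−6.90, SE 0.38, adjusted p = 8.26e-06), and Hoxa13 at 0.382 and 0.888 CPM against 35.5 and 37.2 CPM (−5.86, SE 0.41, adjusted p = 3.01e-05). In each of these genes the 2 distal values differed by little. Hoxa7 was at 1.72 and 0.414 CPM against 18.4 and 18.7 CPM (−4.08, SE 0.61, kept in 3 of 4 fits). Hoxa11 was low even in the distal libraries, at 1.7 and 1.56 CPM (at least 10.2-fold lower in proximal, kept in 0). Members of the cluster below Hoxa7 were not called. Hoxa3 was at 6.02 and 3.96 CPM against 8.16 and 6.18 CPM (adjusted p = 0.685) and Hoxa5 at 2.34 and 1.83 CPM against 3.9 and 8.01 CPM (adjusted p = 0.305).

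The long noncoding RNAs at the 5′ end of the Hoxa cluster went with their neighbours. Hottip, which is transcribed beside Hoxa13 and is known to keep the 5′ Hoxa genes active, was at 0.0956 and 0.237 CPM in the proximal and 10.8 and 14.6 CPM in the distal libraries (−6.24, SE 0.45, adjusted p = 3.01e-05). Hoxa11os, antisense to Hoxa11, was at 0.0956 and 0 CPM against 19.1 and 27.2 CPM, at least 144-fold lower in proximal (adjusted p = 3.01e-05). Hoxa11os overlaps Hoxa11 on the other strand, as Hoxb5os does Hoxb5 and Hoxb6. On the same strand, Hoxd3 overlaps Hoxd4 and Hoxa3 overlaps Hoxa4, Hoxa5 and Hoxa6, so that the reads of these genes were split by Salmon's model and their values are uncertain.

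The Hoxd cluster was a proximal one. Hoxd8 was at 19.3 and 13.2 CPM in the proximal libraries and had at most 1 read in each distal library, at least 104-fold higher (adjusted p = 0.000598). Hoxd4 was at 3.3 and 4.14 CPM against 0.0501 and 0.161 CPM, at least 23.9-fold higher (adjusted p = 0.00791, kept in 2 of 4 fits). The sum over the 9 Hoxd genes was 25.1 and 18.9 CPM in the proximal libraries and 0.100 and 0.161 CPM in the distal ones. The 9 Hoxc genes had 1 read in all 4 libraries together. Summed over the cluster, the Hoxa genes stood at 13.95 and 10.9 CPM in proximal and 113 and 119 CPM in distal libraries.

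**Figure D2:**
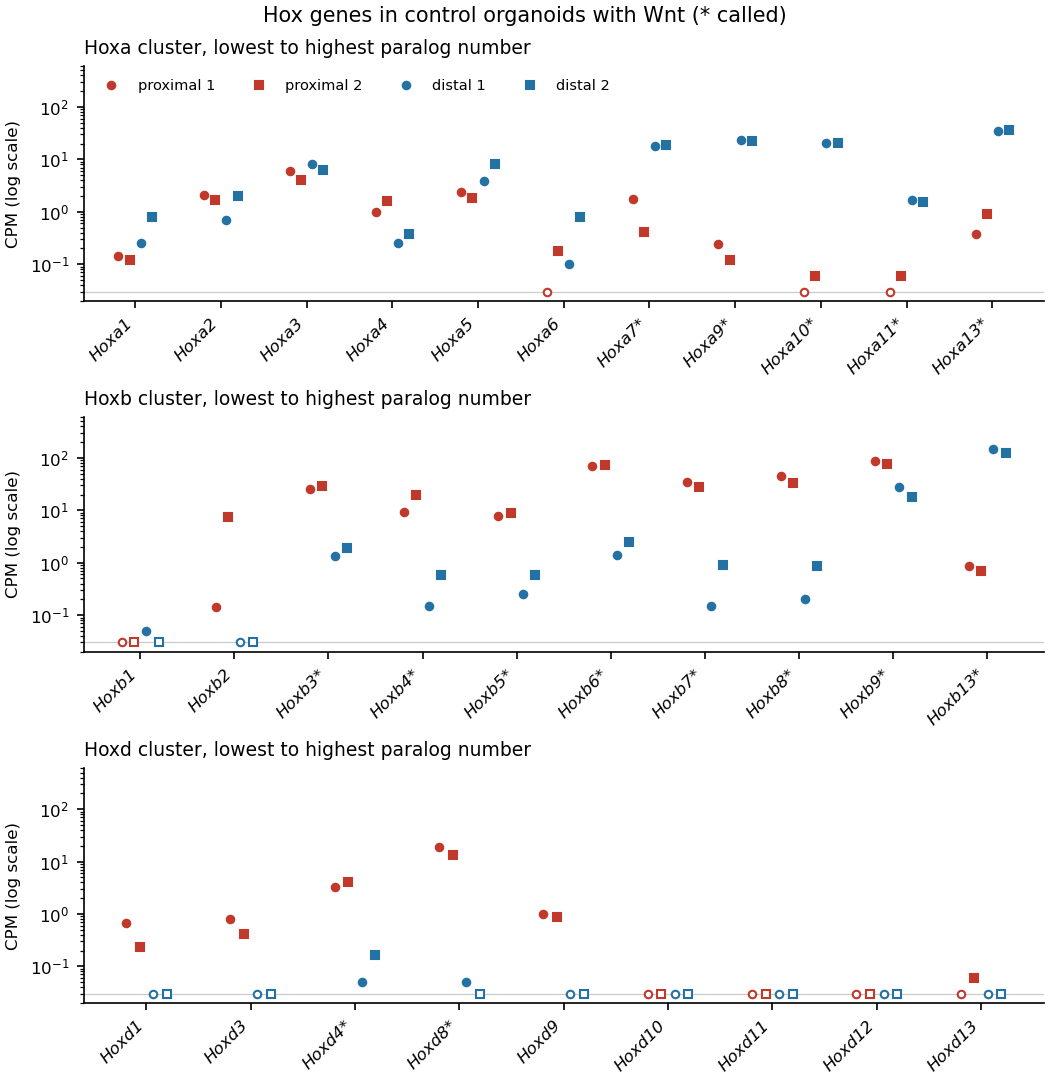
CPM (log axis) of each gene of the Hoxa, Hoxb and Hoxd clusters in the 2 proximal (red) and 2 distal (blue) libraries, from the lowest to the highest paralog number. Open symbols on the grey line are libraries without a read, and asterisks mark called genes. Blue lies above red from Hoxa7 up and at Hoxb13, and red above blue from Hoxb3 to Hoxb9.

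A list of 65 other regulators of regional identity gave 32 tested genes. Of these, 7 were higher in proximal and 2 in distal organoids, beside 0.680% and 1.07% of all genes, and 1 of the distal-high members is Hottip of the Hoxa cluster. Osr2, a zinc finger factor of limb, kidney and gut development, was at 39.1 and 26.8 CPM in the proximal and 0.15 and 0.0538 CPM in the distal libraries, at least 212-fold higher (adjusted p = 3.01e-05). Tbx3, a T-box repressor, was at 47.7 and 41.8 CPM against 0.35 and 0.215 CPM (7.26, SE 0.51, adjusted p = 3.01e-05). Zfp503, a zinc finger corepressor, had no read in the distal libraries and was at 13.4 and 17.8 CPM in the proximal ones (at least 99.9-fold, adjusted p = 3.01e-05). All 3 kept their call whichever library was left out.

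Hottip aside, the other called members lost their call in at least 2 of the 4 fits. Gata3, a zinc finger factor, was at 6.74 and 5.86 CPM against 1.95 and 1.24 CPM (1.97, SE 0.39, kept in 0 of 4 fits). Cyp26b1, which degrades retinoic acid, was at 11.3 and 9.71 CPM against 1.3 and 0.43 CPM (3.58, SE 0.60, kept in 2). Sp9 and Tcf24 were under 7 CPM in every proximal library and at the floor in the distal ones, and their calls were kept in 0 and 1 fits. Meis1, a Hox cofactor, was the distal-high member beside Hottip, at 0.0478 and 0.0592 CPM against 3.0 and 3.01 CPM (at least 18.7-fold lower in proximal, kept in 0). Nr2f2 was at 75.6 and 69.2 CPM against 80.3 and 77.2 CPM, and the hedgehog ligand Ihh at 27.7 and 28.7 CPM against 91.8 and 57.4 CPM, neither of them called (adjusted p = 0.937 and 0.265).

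Tfap2c, an AP-2 family transcription factor, was on none of the lists and was among the 12 highest log2 fold changes of genes with at least 5 CPM. It was at 43.6 and 40.4 CPM in the proximal and 0.30 and 0.0538 CPM in the distal libraries (7.81, SE 0.75, adjusted p = 0.000274). None of 33 tested intestinal transcription factors was called, and with 1.75% of all genes called in either direction a list of this size would hold few calls or none. Hnf4a, which drives enterocyte genes, was at 254 and 250 CPM against 447 and 300 CPM (adjusted p = 0.416), Ehf at 412 and 448 against 611 and 540 (adjusted p = 0.18) and Elf3 at 389 and 330 against 362 and 251 (adjusted p = 0.653). The median log2 fold change of that list was −0.14, beside a median of 0.0049 over all genes tested.

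In the Wnt pathway, receptors and transcription factors were called in both directions. Of 10 tested Frizzled receptors, 2 were higher in proximal and 1 in distal organoids, beside 0.680% and 1.07% of all genes, a family picked out after its values were seen. Fzd10 was at 6.69 and 7.1 CPM in the proximal libraries and at 0 and 0.108 CPM in the distal ones, at least 44.3-fold higher (adjusted p = 0.0216, kept in 0 of 4 fits). Fzd2 was at 6.02 and 6.57 CPM against 0.0501 and 0.376 CPM (4.85, SE 0.95, adjusted p = 0.0351, kept in 0). Fzd5, the more abundant receptor, was at 22.5 and 23 CPM in proximal and 47.2 and 48.4 CPM in distal libraries (−1.07, SE 0.15, adjusted p = 0.00399, kept in 2).

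Of the 4 TCF/LEF factors, which carry beta-catenin to its target genes, 1 was called in each direction (0.680% of all genes were called higher in proximal and 1.07% in distal). Lef1 was at 27.9 and 25 CPM in the proximal and 0.15 and 0.215 CPM in the distal libraries (7.12, SE 1.06, adjusted p = 0.0063, kept in 2 of 4 fits). Tcf7l1, mostly a repressor, was at 0.43 and 0.473 CPM against 21.5 and 3.44 CPM (−4.77, SE 1.00, adjusted p = 0.0327, kept in 1), so that the 2 distal libraries were themselves far apart. Nkd1, a feedback inhibitor of the pathway, was at 7.6 and 6.15 CPM against 0.20 and 0.215 CPM (5.00, SE 0.87, kept in 0). With Fzd5 these were 2 genes in each direction among 22 tested members of the list of Wnt feedback and target genes, against the same shares of all genes.

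Of that list, 6 members had an unadjusted p under 0.05. Unlike Lef1 and Nkd1, the Wnt readouts Axin2, Lgr5, Ascl2 and Ephb2 overlapped between regions. Axin2, a direct target, was at 131 and 149 CPM in the proximal and 106 and 139 CPM in the distal libraries (adjusted p = 0.864). Lgr5, the R-spondin receptor of stem cells, was at 83.9 and 76.6 CPM against 54.6 and 82.4 CPM (adjusted p = 0.922), Ascl2 at 7.26 and 8.28 against 6.01 and 7.64 (adjusted p = 0.938) and Ephb2 at 184 and 188 against 193 and 184 (adjusted p = 0.987). None of 22 tested stem and crypt base genes was called, beside 1.75% of all genes, and 2 had an unadjusted p under 0.05, beside 2165 of all 15289 genes. Their median log2 fold change was −0.11. Of 43 S phase and 54 G2M genes none was called either, and 1 and 2 of them had an unadjusted p under 0.05. Of the 54 G2M genes, 43 had a positive log2 fold change, with a median of 0.17, whereas the G2M gene Mki67, a proliferation marker, was at 553 and 725 CPM against 676 and 800 CPM. Sfrp4 had no read in these 4 libraries, and Sox17 and Cdkn2a were at most at 0.0592 and 0.323 CPM in any of them.

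Genes of other signalling pathways were called in both directions. Ereg, an EGF receptor ligand, was at 45.9 and 67.6 CPM in the proximal and 0.25 and 0.323 CPM in the distal libraries (7.60, SE 1.00, adjusted p = 0.00282), the 1 called gene of 8 tested EGF family ligands, beside 0.680% of all genes called higher in proximal. The receptor Epha3 was at 17.6 and 7.1 CPM in proximal libraries and had at most 1 read in each distal one, at least 79.4-fold higher (kept in 0 of 4 fits). Bmp7 and Bmp2, bone morphogenetic proteins chosen after their values were seen, went in opposite directions. Bmp7 was at 13.1 and 19.8 CPM against 0.551 and 1.67 CPM (3.89, SE 0.66, kept in 2). Bmp2 was at 16.2 and 13.6 CPM against 76.7 and 30.5 CPM (−1.84, SE 0.34, kept in 1). Of 6 tested proprotein convertases, 1 was higher in each region, beside 0.680% of all genes for proximal and 1.07% for distal. The family was picked out after its values were seen. Pcsk5 was at 5.88 and 1.66 CPM in proximal libraries and without a read in distal ones, at least 24.2-fold higher (kept in 0). The distal-high Pcsk1 is given below.

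The sulfate transporter Slc13a1, given below and outside the list of ion and water transport, was proximal-high. Genes on that list were called in the distal direction. Of 41 tested, 6 were higher in distal and none in proximal organoids, beside 1.07% and 0.680% of all genes tested. The median log2 fold change of the list was −0.20. Slc26a3 (ENSMUSG00000001225.12, chr12:31390871-31473917), the chloride and bicarbonate exchanger of the colonocyte surface, was at 4.63 and 4.5 CPM in the proximal and 95.8 and 58.9 CPM in the distal libraries (−4.08, SE 0.34, adjusted p = 9.74e-05). Atp12a, the colonic proton and potassium pump, was at 4.59 and 4.02 CPM against 89.4 and 45.1 CPM (−3.96, SE 0.36, adjusted p = 0.000213). Both were called in all 4 fits without 1 library.

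Aqp4, a water channel, was at 13.1 and 0.952 CPM in the distal Cdx2-sgRNA libraries in WENR-plus, a spread that also enters its p. In the control libraries compared it had no read in proximal and 1807 and 1698 reads, or 90.5 and 91.3 CPM, in distal ones. It was thus at least 566-fold lower in proximal (adjusted p = 0.0236, kept in 0 of 4 fits), the largest bound of the named genes. Genes of sodium uptake followed, with Scnn1a, a subunit of the epithelial sodium channel, at 3.77 and 3.08 CPM against 12.8 and 8.93 CPM (−1.66, SE 0.35, kept in 0). Sgk1, the kinase that raises the activity of that channel, was at 4.06 and 2.31 CPM against 21.1 and 9.68 CPM (−2.26, SE 0.38, kept in 2), and the bicarbonate cotransporter Slc4a7 at 163 and 138 CPM against 350 and 295 CPM (−1.10, SE 0.22, kept in 0). The most abundant members were not called. Slc12a2, which loads chloride for secretion, was at 808 and 1028 CPM against 1009 and 1038 CPM, Atp1b1 at 875 and 961 against 1568 and 1170, and Slc4a4 at 265 and 235 against 166 and 195 (adjusted p = 0.923, 0.26 and 0.673).

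Of 10 carbonic anhydrases tested, 1 was called higher in proximal organoids, beside 0.680% of all genes. Car12, a membrane carbonic anhydrase, was at 19.4 and 15.7 CPM against 0.751 and 2.85 CPM (3.29, SE 0.71, kept in 0 of 4 fits). Slc13a1, which takes up sulfate and was named here because all 4 fits kept its call, was at 8.51 and 5.62 CPM against 0.25 and 0 CPM (5.70, SE 0.72, adjusted p = 0.00471). The abundant colonic enzymes Car1, at 207 and 144 CPM against 239 and 163 CPM, and Car2, at 839 and 661 against 1112 and 918, were not called (adjusted p = 0.879 and 0.55).

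Glycosyltransferases, which build the sugar chains of mucins and glycolipids, were called in the distal direction in both families described, which were picked out after their values were seen. Of 13 sialyltransferases tested, 4 were higher in distal and none in proximal organoids, beside 1.07% and 0.680% of all genes. The log2 fold change was positive in 7 of the 13 and negative in 6, with a median of 0.0070. St3gal6 was at 5.4 and 7.69 CPM against 145 and 155 CPM (−4.52, SE 0.40, adjusted p = 0.000175), and St6galnac4 at 0.239 and 2.37 against 91.8 and 61.4 (−5.93, SE 0.68, adjusted p = 0.000992). These held in all 4 fits without 1 library. St6galnac6 was at 8.08 and 13 CPM against 72.1 and 40.3 CPM and St3gal3 at 7.22 and 7.93 against 22.4 and 19.5, with log2 fold changes of −2.42 (SE 0.40, kept in 1) and −1.47 (SE 0.33, kept in 0).

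Of 11 tested beta-1,3-glycosyltransferases, 3 were higher in distal and none in proximal organoids, beside 1.07% and 0.680% of all genes. B3galt5 was at 8.7 and 8.94 CPM in the proximal and 319 and 99.6 CPM in the distal libraries (−4.57, SE 0.61, adjusted p = 0.00307, kept in 2). Its distal libraries were apart by more than the proximal ones but did not reach them. B3gnt5 was at 12.8 and 3.61 CPM against 92.7 and 67.2 CPM (−3.27, SE 0.67, kept in 0) and B3gnt7 at 1.29 and 1.48 against 16.3 and 6.45 (−3.03, SE 0.54, kept in 1). The fucosyltransferase Fut9, outside the naming rule, was also distal-high, at 1.86 and 0.178 CPM against 16.7 and 15.4 CPM (−3.93, SE 0.86, kept in 1). A4gnt, which caps gastric-type mucin chains, was the exception. It was at 15 and 12.7 CPM in the proximal and 0.25 and 0.0538 CPM in the distal libraries (6.42, SE 1.00, adjusted p = 0.0104, kept in 1).

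The most abundant mucins were not called. Muc2, the gel-forming mucin of goblet cells, was at 153 and 375 CPM against 239 and 199 CPM, so that the 2 proximal values lay on either side of the distal ones (adjusted p = 0.924). The membrane mucins Muc4, at 87.5 and 113 CPM against 407 and 378 CPM, and Muc13, at 844 and 762 against 1201 and 1180, did not overlap between regions and did not pass the test (adjusted p = 0.193 and 0.314). Of 34 tested goblet cell genes, St3gal6 was the 1 called, beside 1.75% of all genes called in either direction, so that the count does not set the list apart.

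Enteroendocrine genes, of the hormone cells of the epithelium, leaned to the distal side. Of 28 tested, 26 had a negative log2 fold change, with a median of −0.97, whereas 50.5% of all genes tested had a positive one, with a median of 0.0049. Of the 28, 3 were called, beside 1.07% of all genes called in that direction. Pyy, a hormone of the distal gut, was at 0.239 and 0.296 CPM in the proximal and 13 and 15.2 CPM in the distal libraries (−5.69, SE 0.82, adjusted p = 0.00517, kept in 2 of 4 fits). Pcsk1, which cuts prohormones, was at 0.0478 and 0 CPM against 2.1 and 4.36 CPM (at least 20.1-fold lower in proximal, kept in 1), and the granule protein Scg2 at 2.48 and 1.3 against 10.5 and 7.74 (−2.25, SE 0.39, kept in 2). The list summed to 126 and 99.7 CPM in the proximal and 250 and 236 CPM in the distal libraries. The general markers of the lineage were not called. Chga was at 18 and 16.9 CPM against 37.9 and 31.9 CPM, Chgb at 47.8 and 28.5 against 99.7 and 75.3, Insm1 at 7.6 and 9.65 against 14 and 19 and Neurog3, the factor that starts the lineage, at 14.4 and 13.6 against 20.1 and 23.3. None of these passed the test (adjusted p = 0.114, 0.129, 0.332 and 0.727). In bulk organoids, fewer cells of a type and less RNA per cell cannot be told apart.

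**Figure D3:**
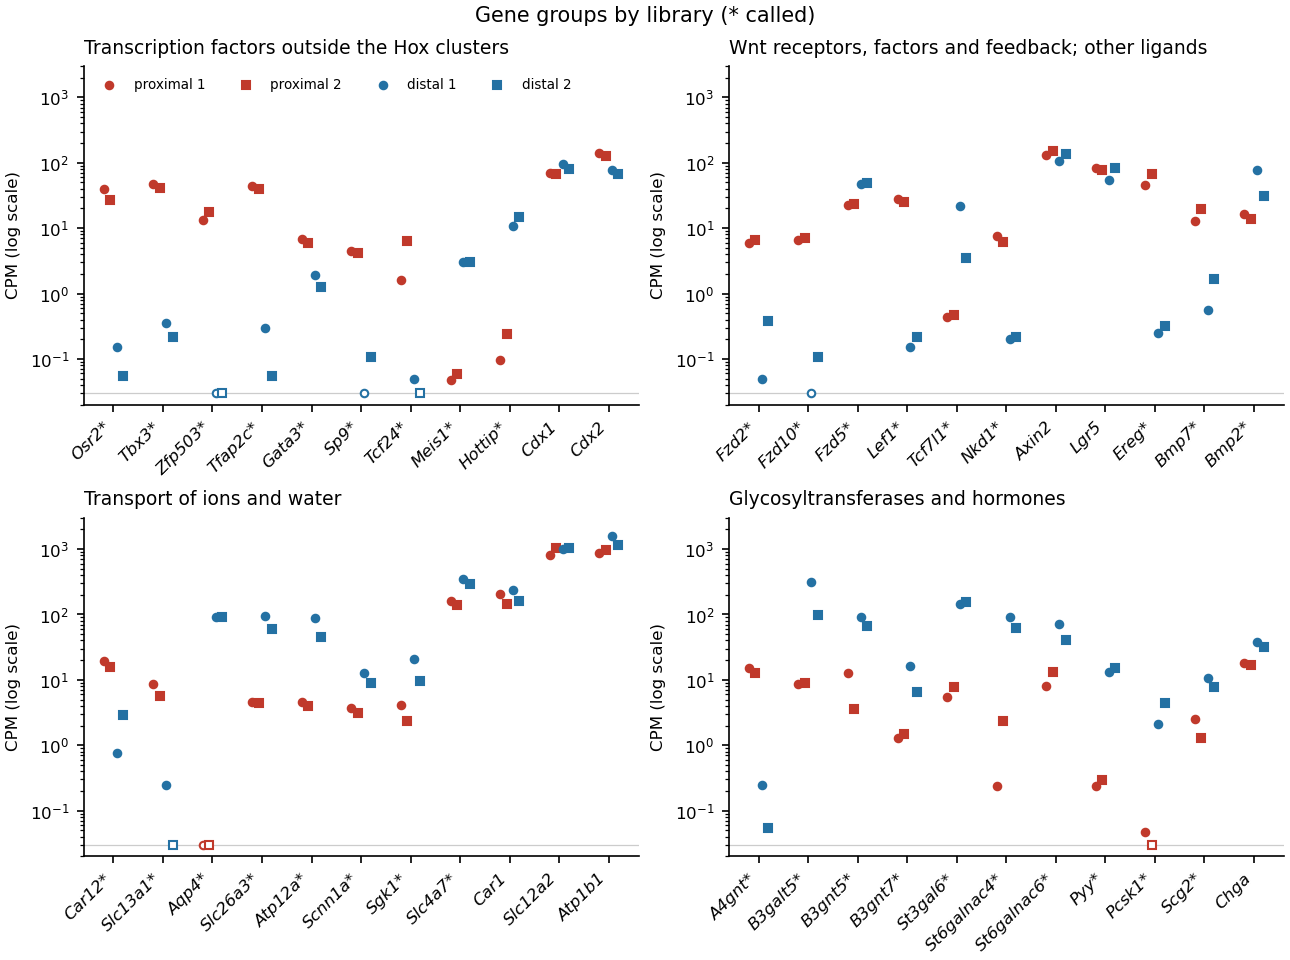
CPM (log axis) in each of the 2 proximal (red) and 2 distal (blue) libraries for named genes of 4 groups. Open symbols on the grey line are libraries without a read, and asterisks mark called genes. Lef1 lies at 27.9 and 25 CPM in proximal libraries and below 1 CPM in distal ones, while Axin2 and Lgr5 overlap, and the glycosyltransferases shown other than A4gnt are blue over red.

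Metabolic and detoxifying enzymes were called on both sides. Of 60 tested genes of the cytochrome P450 and conjugation list, 2 were higher in each region, beside 0.680% of all genes for proximal and 1.07% for distal. Within the Cyp2c family, Cyp2c65 was at 46.6 and 50.1 CPM in proximal and 1.25 and 1.02 CPM in distal libraries (5.40, SE 0.45, adjusted p = 9.74e-05), and Cyp2c68 at 0.239 and 0.296 against 17.1 and 8.44 (−5.55, SE 0.54, adjusted p = 0.000294). Both calls held whichever library was left out, and the genes of this family are close copies, so reads may have been shared between them. Aldh1b1, a mitochondrial aldehyde dehydrogenase, was at 166 and 174 CPM against 96.1 and 62.5 CPM (1.1, SE 0.20, kept in 1), and Gstm1, a glutathione transferase, at 64.2 and 40.5 against 198 and 110 (−1.55, SE 0.34, kept in 1). Adh1 was at 242 and 178 CPM against 797 and 526 CPM and did not pass the test (adjusted p = 0.0805).

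The most abundant called genes had modest folds, apart from Hoxb6. In the proximal direction they were Aldh1b1, Hoxb9, Hoxb6, Fabp5, Rpl22l1, Me1, Gramd3 and Wsb1. Fabp5, a fatty acid binding protein, was at 163 and 97.9 CPM against 44.3 and 25.1 CPM (1.91, SE 0.40, kept in 0), and Me1, malic enzyme, at 70.6 and 89.4 against 31.7 and 11.7 (1.88, SE 0.40, kept in 1). Gramd3 was at 72.8 and 78.6 against 29.5 and 20.2 CPM, Rpl22l1 at 95.8 and 78.3 against 42.8 and 43.7, and Wsb1 at 55.5 and 60.7 against 28.3 and 28.8. In the distal direction Ahnak, a very large scaffold protein, was at 557 and 536 CPM against 1108 and 2369 CPM (−1.67, SE 0.35, kept in 1). Pdxdc1, Parm1, Slc4a7, Ppp2cb, Ablim1, Lrba and the mitochondrially encoded mt-Co2 completed that set, with log2 fold changes from −1.27 for Parm1 to −1.03 for Lrba. For mt-Co2 the libraries stood at 169 and 123 against 277 and 375 CPM. The call was kept in 3 of the 4 fits for Ppp2cb, in 2 for Gramd3, in 1 each for Pdxdc1, Parm1, Ablim1 and Lrba, and in 0 for Wsb1, Rpl22l1 and mt-Co2.

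Several further genes were close to absent on one side. In proximal organoids Ptpn5, a tyrosine phosphatase, was at 24.5 and 11.2 CPM and at least 114-fold higher (adjusted p = 0.00223), and the adhesion protein Pcdh19 was at 8.41 and 8.94 CPM and at least 55.7-fold higher (kept in 2). In distal organoids Thbs4 was at 40.8 and 8.5 CPM and at least 153-fold lower in proximal (kept in 1), Itih2 at 14.2 and 8.55 CPM (at least 70.8-fold, adjusted p = 0.000978), the vasopressin receptor Avpr1b at 6.41 and 14.2 CPM (at least 64.4-fold, adjusted p = 0.00171) and the tyrosine kinase Fes at 5.81 and 8.66 CPM (at least 45.1-fold, adjusted p = 0.000169). The last 3 of these kept their call in all 4 fits. Cma1, a chymase known from mast cells, was at 1.19 and 0.592 CPM against 78.7 and 107 CPM (−6.66, SE 1.27), Scin at 0.382 and 0.237 against 39.3 and 34.8 and Pros1 at 0.0478 and 0.296 against 12.9 and 18.3, with calls kept in 0 fits each. The part of mast cells in the Cma1 value was not tested. Of 21 tested genes of fetal and regenerative epithelium, 1 was higher in each region (0.680% of all genes in proximal and 1.07% in distal), Ereg in proximal and Vsig1 in distal organoids. Vsig1 was at 0.191 and 0.237 CPM against 15.2 and 8.55 CPM (−5.76, SE 0.54, adjusted p = 0.000242).

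Of the remaining genes called in all 4 fits without 1 library, some of the more abundant are named here although the naming rule does not pick them. Khdc1a was at 6.4 and 11.4 CPM in proximal and 267 and 154 CPM in distal libraries (−4.57, SE 0.47, adjusted p = 0.00046). Lrrk2, a kinase best known from Parkinson's disease, was at 1.1 and 0.355 against 54.3 and 29.6 (−5.80, SE 0.57, adjusted p = 0.000311). Prkacb, a catalytic subunit of protein kinase A, was at 34.8 and 33 against 183 and 133 (−2.22, SE 0.21, adjusted p = 0.000242). Pam, which amidates peptide hormones, was at 88.1 and 66.8 against 230 and 214 (−1.52, SE 0.15, adjusted p = 0.000286), and the planar polarity gene Celsr1 at 41.1 and 39.6 against 118 and 122 (−1.58, SE 0.17, adjusted p = 0.000534).

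Of 9 tested genes of squamous epithelium, 1 was called, beside 1.07% of all genes higher in distal. This was Lor, a protein of the cornified layer, at 0.0478 and 0.0592 CPM against 0.601 and 5.27 CPM (at least 18.3-fold lower in proximal, kept in 1). Crnn and Tgm3, of the same cornified layer and chosen after their values were seen, were at 0.334 and 0.178 against 6.31 and 5.75 CPM and 0.717 and 0.947 against 22.2 and 9.3 CPM (−4.49, kept in 0, and −4.25, kept in 3). The list summed to 90.7 and 61.2 CPM in proximal and 130 and 68.1 CPM in distal libraries, which overlap, and Krt4 was higher in proximal by value, at 41.5 and 17.1 against 3.8 and 13 CPM, without passing the test. The matrix metalloproteinase Mmp7, a product of Paneth and injured epithelial cells, was proximal-high at 18.5 and 53.9 CPM against 2.05 and 5.05 CPM (3.35, SE 0.69, kept in 1).

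Among differentiation markers of the colonocyte, Slc26a3 was the 1 called gene of 35 tested, beside 1.75% of all genes called in either direction, and the median log2 fold change was −0.04. Krt20 was at 25.9 and 20.3 CPM against 36.9 and 21.1 CPM, Vil1 at 188 and 185 against 207 and 174, Fabp2 at 5.3 and 9.17 against 10.6 and 2.42 and Emp1 at 490 and 338 against 237 and 176 (adjusted p = 0.863, 0.972, 0.966 and 0.43). Among 34 host defence genes none was called. Pigr, the antibody transporter, was at 1249 and 1250 CPM against 2201 and 1304 CPM, and Ly6e at 146 and 4.14 against 235 and 226, with the 2 proximal libraries far apart. No gene was called among 32 genes of lipid, sterol and bile acid handling, 20 p53 targets, 18 small intestinal genes, 6 tuft cell genes or 3 gastric genes. All 6 tuft cell genes had a positive log2 fold change, with a median of 0.98. Their list of 24 summed to 9.84 and 10.7 CPM in proximal and 5.11 and 2.205 CPM in distal libraries. Of the 24, 19 had at most 3 reads in each library. An unadjusted p under 0.05 was found for 12 host defence genes, 6 of lipid handling, 3 p53 targets, 3 small intestinal genes, 1 tuft cell gene and 0 gastric genes, beside 2165 of all 15289 genes tested.

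**Figure D4:**
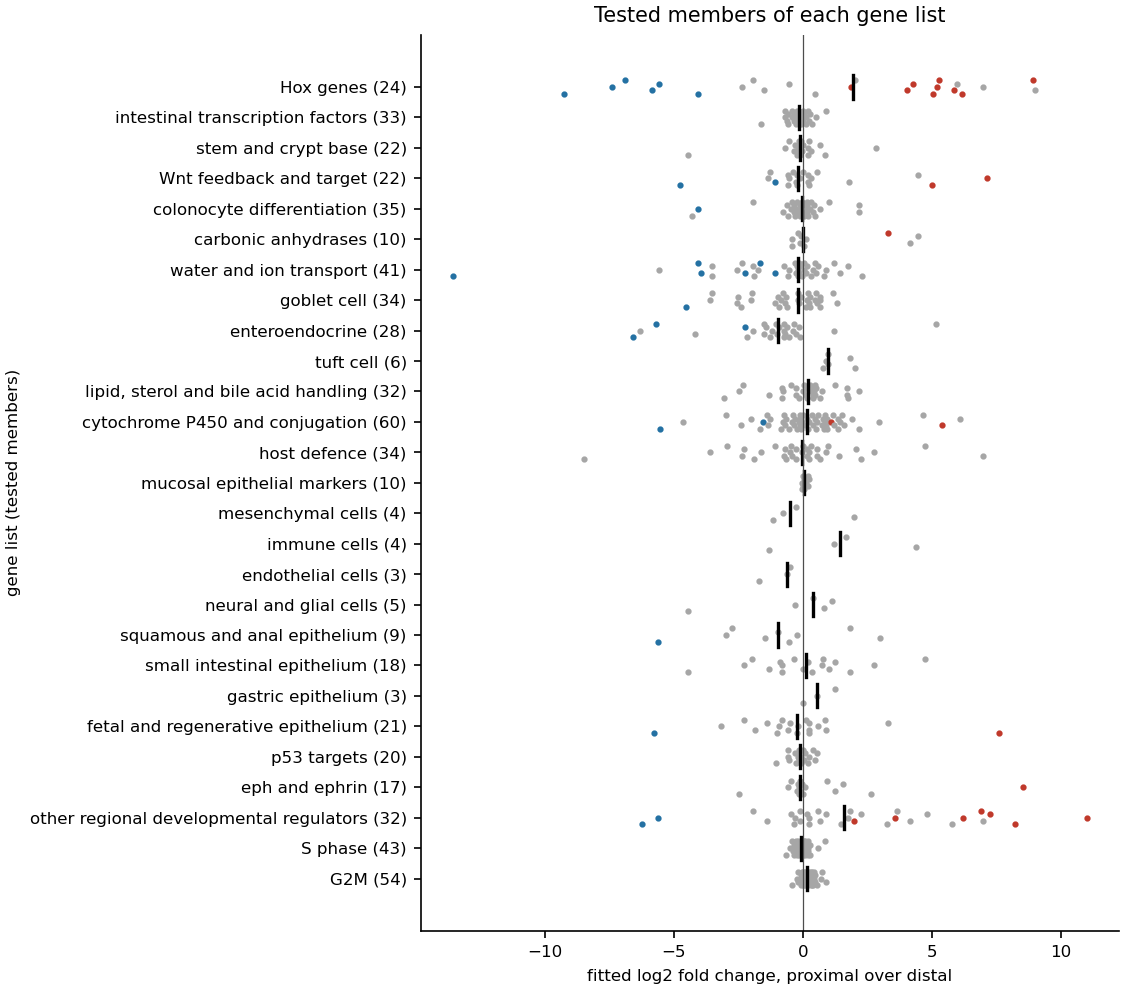
Fitted log2 fold change of proximal over distal for each tested member of each gene list, with the number tested in brackets. Red and blue dots are genes called higher in proximal and distal organoids, grey dots were not called, and black bars are medians. The Hox and regional lists spread over both sides, while stem, cell cycle and epithelial marker lists sit near 0.

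The same regional genes were then read in libraries that had not entered the contrast, though all come from organoids of the same 2 mice. The Scramble-sgRNA libraries without Wnt factors come from the same cultures, moved to WENR-minus for the last 3 days. They are thus in part a second measure of those cultures. All 16 libraries also entered the fit that estimated the spread. In Scramble-sgRNA organoids without Wnt factors, 929 genes were called by the same rule (6.08%), 440 higher in proximal (2.88%) and 489 higher in distal (3.20%). Of the 104 proximal-high genes, 101 had the same sign there and 80 were called in the same direction. Of the 163 distal-high genes, 162 had the same sign and 120 were called in the same direction, and none of the 267 was called in the opposite one. Over all genes tested, 54.8% had a positive log2 fold change without Wnt factors. The median of the proximal-high genes was 3.81 with and 3.26 without the factors, and that of the distal-high genes −2.69 and −2.43. In values, Hoxb8 had a log2 fold change of 6.09 without the factors, Hoxb13 of −9.13, Tbx3 of 6.41, Slc26a3 of −4.89 and St3gal6 of −3.95. Fzd5 and Ppp2cb were nearer to 0, at −0.09 and −0.01.

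Whether the difference between regions itself depended on the factors was tested with an interaction term, and 11 of 15289 genes were called (0.0719%), 6 with a higher and 5 with a lower log2 fold change in WENR-plus. A total of 1503 genes had an unadjusted p under 0.05. Among the genes named above only Atp12a was called. Its log2 fold change of proximal over distal was −3.96 with and −7.70 without the factors, a difference of 3.74 (adjusted p = 0.0222), so that the gap between regions was wider in WENR-minus. The count moved between fits, and leaving 1 library out also lowers the power of the test. It was 1 without proximal replicate 1, 0 without proximal replicate 2, 17 without distal replicate 1 and 5 without distal replicate 2, DESeq2 called 159, and a fit with the replicate number as a block called 20.

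In Cdx2-sgRNA organoids in WENR-plus 2595 genes or 17.0% of those tested were called between regions, 1132 higher in proximal (7.40%) and 1463 higher in distal (9.57%). Of the 104 proximal-high genes of the control organoids, 54 were called in the same and 7 in the opposite direction. Of the 163 distal-high genes, 110 were called in the same and 6 in the opposite direction. The median log2 fold change of the proximal-high genes was 1.90 in these libraries and that of the distal-high genes −2.53. As fitted values, Hoxb8 stood at 7.31, Hoxb13 at −7.18, Hoxa10 at −8.27, Hoxd8 at 11.06, Tbx3 at 6.43 and Osr2 at 6.67. Where a group has few or no reads, such a value depends on the count that the model adds and is not a measured size. Hoxa10 was at 0.058 and 0.159 CPM in the proximal Cdx2-sgRNA libraries.

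The interaction of region and guide called 762 genes (4.98%), 575 with a higher and 187 with a lower log2 fold change in the control organoids. Without 1 of the 4 libraries it called between 360 and 660. Of the 15 called Hox genes, Hoxb9 was called here, with 1.86 in control and 3.74 in Cdx2-sgRNA organoids (adjusted p = 0.00293). For the other 14 the test was not passed, which does not show that they acted alike. Several proximal-high genes were called in this test. Tfap2c had 7.81 in control and −0.39 in Cdx2-sgRNA organoids (adjusted p of the difference = 0.0117), Cyp2c65 5.40 and −1.15 (0.000205), A4gnt 6.42 and −4.66 (0.00155) and Nkd1 5.00 and −1.16 (0.0267). Within Cdx2-sgRNA organoids the region effect passed the test for A4gnt (adjusted p = 0.0074) and not for Tfap2c, Cyp2c65 and Nkd1 (adjusted p = 0.824, 0.101 and 0.428). On the distal side, Vsig1 went from −5.76 in control to −0.17 in Cdx2-sgRNA organoids (adjusted p = 0.000738). The glycosyltransferases B3gnt5, St6galnac6 and St3gal3 had wider gaps in Cdx2-sgRNA organoids, at −7.63, −5.94 and −4.58.

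**Figure D5:**
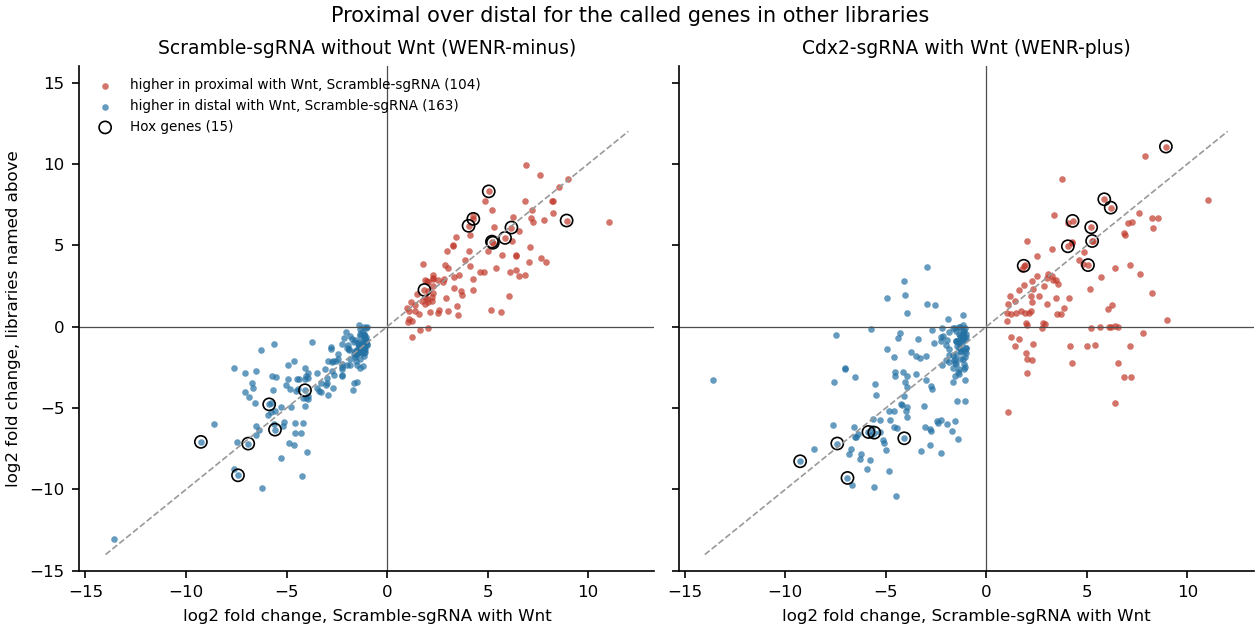
Log2 fold change of proximal over distal for the 267 called genes in the libraries that called them (horizontal axis) and in libraries outside the contrast (vertical axis), Scramble-sgRNA without Wnt factors on the left and Cdx2-sgRNA with Wnt factors on the right. Red and blue are the 104 proximal-high and 163 distal-high genes, black rings the 15 called Hox genes, and the dashed line is equality. In the right panel 22 red and 10 blue genes have the opposite sign in Cdx2-sgRNA libraries.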

How the data were processed

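RNA of the organoids was converted to stranded total RNA libraries with a SMARTer kit from 1 µg of total RNA. The authors aligned reads to GENCODE vM23 transcripts of the mouse genome with Salmon 1.1.0, with the library type detected by the program. The deposited tables hold an estimated count and a TPM value (a length-scaled abundance from the authors' Salmon run) per transcript. The submitters' processing notes also name DESeq2 1.32.

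Here estimated counts were summed over the transcripts of each gene and rounded, with genes taken from GENCODE vM21 (GRCm38). Of 140748 transcripts, 884 had no entry there, and they held 0.3422% to 0.4038% of the reads of the 4 libraries compared. Genes passing filterByExpr (15289 of 54123) were scaled by TMM and fitted with edgeR 4.0.16 in R 4.3.3, with 8 group coefficients over 16 libraries and the quasi-likelihood test on 8 residual degrees of freedom. SE was obtained as |log2 fold change| over √F. CPM uses TMM-scaled library sizes, and TPM was used to compare genes. The 16 libraries held 12465194 to 18922143 reads on genes, so that 3 reads in each library correspond to 0.1604 CPM in the proximal and 0.1557 CPM in the distal group compared. Replicates of a group came from independent mice, per the authors, and the labels do not tie replicate numbers to mice. The fit was tested on simulated data with 14621 genes. It recovered 69.7% of genes changed by a log2 fold change of 1.5, 82.1% at 2 and 92.5% at 4, and 9 of 172 calls were of unchanged genes. Only genes of higher mean count were changed, and only in the proximal group compared. These shares therefore do not describe genes near the floor.

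Named genes were Cdx2, Cdx1 and genes the study names, the 12 highest and 12 lowest log2 fold changes and the 8 most abundant in each direction among called genes with at least 5 CPM, every called list member, and up to 4 uncalled members per list. Others are marked as chosen after their values were seen. The members and lists were chosen with earlier results of these data known. Cell cycle lists came from Seurat 5.3.0. Alternatives were DESeq2 1.42.0, limma 3.58.1 (voom), RLE scaling, other filters, length-scaled counts, no mitochondrial genes, a replicate block, fewer libraries, and each library left out.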

Additional observations from a re-analysis of the deposited data

Results flagged for a closer look

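The regional difference was tested between media and between guides, and the genes below were picked out because the interaction term passed. Values are the fitted log2 fold change of proximal over distal in control organoids with Wnt factors minus that in the other libraries, from edgeR. Where a group has few or no reads, they are not measured sizes.

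Between media, the difference was Car4 (6.65), Rnf152 (6.05), Usp2 (5.15), Atp12a (3.74), Kyat1 (2.50) and Fhdc1 (1.87) for genes with a higher value in WENR-plus, and Gm49273 (−8.77), Akr1c19 (−3.11), Itga2 (−2.22), Arid5b (−2.12) and B4galt4 (−1.14) for genes with a lower one. Car4, a membrane carbonic anhydrase of colonocytes, was at 1.34 and 1.54 CPM in proximal and 2.15 and 0.914 CPM in distal libraries with the factors, and at 4.46 and 1.67 against 401 and 257 CPM without them. Atp12a was at 5.52 and 4.12 against 1002 and 998 CPM without the factors. Akr1c19, an aldo-keto reductase, was at 19.2 and 19 against 42.9 and 35.4 CPM with and 199 and 181 against 46 and 44 CPM without them. Gm49273 is annotated as a processed pseudogene, whose reads may be shared with its parent gene. Without the factors it was at 3.04 and 3.28 CPM in proximal libraries and had no read in distal ones. The size of its difference thus depends on the count that the model adds. In Car4, Atp12a, Rnf152, Usp2 and Kyat1 the distal libraries without the factors held the highest values.

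Between guides, transcription factors differed by Cdx2 (1.72), Cdx1 (6.38), Hnf4a (2.37), Hoxa3 (6.38), Hoxa5 (4.77), Hoxb9 (−1.88), Gata3 (3.58) and Tfap2c (8.20). Cdx1 was at 68.9 ± 2.93 CPM (SD, n = 2) in proximal and 87.6 ± 10.9 CPM in distal control organoids, and at 0.702 ± 0.320 and 74.5 ± 8.24 CPM in Cdx2-sgRNA organoids. Glycosyltransferases differed by A4gnt (11.08), B3gnt5 (4.36), B3gnt7 (3.10), St6galnac6 (3.52) and St3gal3 (3.12). Enteroendocrine genes differed by Chga (6.03), Chgb (5.70), Neurog3 (6.62) and Scg2 (5.50), and mucins, carbonic anhydrases and transporters by Muc2 (5.49), Muc13 (6.05), Car1 (4.26), Car2 (1.69), Atp1b1 (2.17) and Slc4a7 (1.51). The other values were Itih2 (−4.51), Vsig1 (−5.59), mt-Co2 (−1.90), Aldh1b1 (6.34), Gramd3 (2.38), Nkd1 (6.16), Cyp2c65 (6.55) and Pcdh19 (10.26). For Pcdh19, at 0.0501 and 0.0538 CPM in the distal control libraries, the size depends on the count that the model adds. The Cdx2-sgRNA organoids grew from single cells and no such step is described for the control organoids, so the guide and that step cannot be told apart. Groups of 2 libraries are too small to test for a sample that stands apart.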

How the results depend on the processing

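The regional comparison with Wnt factors called 267 genes. DESeq2 called 538 (227 higher in proximal and 311 in distal), a fit without a filter beyond 1 read called 1039, and a filter of at least 10 counts in every library, which tests 10202 genes, called 107 (32 and 75). Leaving out 1 of the 4 libraries gave 80 to 138. The interaction with medium called 11 genes, against 159 with DESeq2, 4 with limma-voom, 454 without a filter, 20 with the replicate block and 0 to 17 with 1 library left out. The interaction with guide called 762 genes, against 1234 with DESeq2, 1863 without a filter, 426 with at least 10 counts in every library and 360 to 660 with 1 library left out. The cause was not tested. All other alternatives stayed within 1.5 times of each count.

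Replicate numbers were not shown to pair the proximal with the distal libraries compared, whose same-numbered deviations correlated at 0.08974. Between media within a region they correlated at 0.4066 in proximal and 0.2812 in distal Scramble-sgRNA organoids, so same-numbered libraries deviated together there, and the interaction with medium called the same 11 genes among 20 with the replicate block. With the replicate block the regional comparison called 349 genes (147 higher in proximal and 202 in distal), 263 of them shared with the 267, and 92 of the 93 called genes named in the text kept their call. Of those 93, DESeq2 kept 93, and limma-voom, length-scaled counts and a fit of the 4 libraries alone kept 75, 75 and 70. No called gene changed direction under any alternative tried, though the calls came from these same libraries. Uncalled genes near 0 did. With 1 library left out, the log2 fold change ranged from −0.052 to 0.58 for Lgr5, −0.000277 to 0.42 for Axin2, −0.33 to 0.0065 for Slc12a2, −0.64 to 0.12 for Krt20, −0.12 to 0.083 for Vil1, −0.53 to 1.56 for Fabp2, −0.50 to 0.78 for Muc2 and −0.48 to 0.095 for Car1. Sox17, with 1 read in the 4 libraries, had a fitted value of 2.19 that ranged from 0 to 3.10. For Vil1 and Ephb2 the log2 fold change was 0.0098 and 0.017 with at least 10 counts in every library, and 0.0165 and 0.0059 with length-scaled counts. With 1 library left in a group, the lone library is assumed to vary like the other groups. Low counts limit the genes at the floor, whose folds are bounds, and 2 libraries a group from 2 mice limit every comparison here.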
